A study of Mus musculus with 125 samples.

Results

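The 40 genes described here encode proteins of pre-mRNA splicing, and were chosen by symbol from the 43421 genes of a table of mouse 2-cell embryos. Their symbols start with Srsf (11 SR protein genes), Hnrnp (20 genes of heterogeneous nuclear ribonucleoproteins) or Sf3a and Sf3b (9 subunit genes of splicing factor 3a and 3b). The 2 symbols with a -ps ending, the mark of a pseudogene, were left out. The rule reads the symbol and no measured value.

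SR proteins carry an RNA-binding domain and a tail rich in arginine and serine, bind exonic enhancers and help to bring the spliceosome to nearby splice sites. The hnRNP proteins coat nascent transcripts, and many of them bind silencers and oppose exon inclusion. SF3a and SF3b are protein complexes of the U2 small nuclear ribonucleoprotein that recognise the branch site of an intron. In the mouse, the major start of transcription from the embryo's own genome falls in the 2-cell stage, when most RNA left by the oocyte is being cleared.

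RNA-seq was done on single 2-cell embryos, collected 34 h after fertilization per the labels' protocols. The zygotes, picked at 10 h, had all lost their second polar body to a micromanipulator. Hybrids of the mouse strains C57BL/6 and JF1/Ms were named BxJ (C57BL/6 x JF1/Ms) or JxB (JF1/Ms x C57BL/6), without a statement of which strain was the mother. Embryos had 2 pronuclei (2PN) or 1 pronucleus (1PN), and for some 1PN embryos an in silico call of the submitters reads parthenote, made by a method not given in the sources used here. These are named uniparental below. The groups held 4 uniparental JxB, 3 other 1PN JxB and 21 2PN JxB embryos, then 8 uniparental BxJ embryos, 31 parthenotes of C57BL/6, 11 other 1PN BxJ and 43 2PN BxJ embryos. Parthenotes are embryos that develop from an oocyte without sperm, and how they were activated is not given.

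The 121 libraries held 533116 to 4887190 counts, with a median of 3392243. Levels are in CPM, a count relative to its library's size after scaling by TMM factors (trimmed mean of M-values), and are shares of an embryo's RNA. Fold changes, SEs and p-values adjusted by the Benjamini-Hochberg method came from edgeR's quasi-likelihood test over all genes, with a threshold of 0.05. No label says which embryos share parents, and the p-values measure the spread between these embryos only. Each library pooled the cells of an embryo, so less RNA in all cells and less RNA in some of them cannot be told apart. The 2-cell stage markers were present in most embryos, but uniparental JxB embryos 1 and 2 had only 12.5 and 192 CPM over the 8 markers, against 1018 to 7538 CPM in 2PN JxB embryos, and Zscan4d was at 0 in embryo 1. Uniparental embryos also held more oocyte-derived RNA as a sum of markers, described beside the first comparison. Summed markers of cumulus and granulosa cells reached at most 85.6 CPM, those of sperm and testis 16.1 CPM and those of blood 68.7 CPM, the last with 2 of 5 genes in the table.

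Promoters were available for 36 of the 40 genes, as the 250 bases before and 50 bases after the start of the gene in RefSeq (GRCm38.p6). The sequences below are those of the most lowered member of each family in uniparental against 2PN embryos, Srsf6 (chr2:162931258-162931557, plus strand), Hnrnpm (chr17:33685409-33685708, minus strand) and Sf3b6 (chr12:4817358-4817657, plus strand). Capitals mark matches on either strand to the Sp GC box GGGCGG, the ETS core CCGGAAG, the TATA box TATAAA and the E-box CACGTG.
Srsf6 promoter: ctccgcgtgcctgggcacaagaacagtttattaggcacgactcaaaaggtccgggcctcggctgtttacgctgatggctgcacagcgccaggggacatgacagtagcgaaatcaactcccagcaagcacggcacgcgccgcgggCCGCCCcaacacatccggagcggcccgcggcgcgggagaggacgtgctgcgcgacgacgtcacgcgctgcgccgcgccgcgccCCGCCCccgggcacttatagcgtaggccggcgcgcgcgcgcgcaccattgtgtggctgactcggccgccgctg
Hnrnpm promoter: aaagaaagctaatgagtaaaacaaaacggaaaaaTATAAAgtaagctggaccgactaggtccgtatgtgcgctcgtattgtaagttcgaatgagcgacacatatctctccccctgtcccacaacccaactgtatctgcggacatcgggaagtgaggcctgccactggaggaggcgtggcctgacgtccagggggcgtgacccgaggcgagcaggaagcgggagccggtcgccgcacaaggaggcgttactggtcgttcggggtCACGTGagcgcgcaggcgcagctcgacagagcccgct
Sf3b6 promoter: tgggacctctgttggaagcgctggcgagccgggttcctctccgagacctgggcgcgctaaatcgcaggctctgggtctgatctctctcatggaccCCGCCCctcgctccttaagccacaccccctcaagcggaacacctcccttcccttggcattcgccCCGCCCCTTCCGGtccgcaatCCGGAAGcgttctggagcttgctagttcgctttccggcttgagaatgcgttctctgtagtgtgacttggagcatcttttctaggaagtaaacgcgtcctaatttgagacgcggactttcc
In the Srsf6 window 2 GC boxes were found on the other strand. The Hnrnpm window held a TATA box far upstream of the start and an E-box, and no GC box. In the Sf3b6 window a GC box was followed directly by an ETS core, both on the other strand, and a further ETS core lay downstream. Over the 36 promoters the GC box was found in 28 (77.8%), against 38.2% of all 27025 promoters in the RefSeq table. The ETS core was found in 12 (33.3%, against 9.9%), the TATA box in 5 (13.9%, against 15.7%) and the E-box in 5 (13.9%, against 8.1%). The CCAAT box of NF-Y was found in 19 (52.8%, against 41.1%), the NRF1 core TGCGCA in 9 (25%, against 8.8%) and the YY1 site ATGGCGGC in 6 (16.7%, against 2.6%). Median GC content was 63.3% in the members' windows, against 52.8% in all windows. A match is a run of letters and not a measured binding site.

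The first comparison asks how 1PN embryos called parthenogenetic differed from 2PN embryos, with cross as a term of the fit. A parthenogenetic embryo holds the genome of its mother's strain only, while 2PN embryos are hybrids, and the cross term does not remove this. Strain and parthenogenesis therefore cannot be told apart here, within each cross or against the other 1PN embryos. Most of the splicing factor genes that changed were lower in uniparental embryos. Of the 40 members 22 fell and 1 rose, with 6 lower SR protein genes, 10 lower and 1 higher Hnrnp gene, and 6 lower Sf3 genes. Among all 22785 genes tested 15.8% were called lower and 18.3% higher, and among the 9379 genes that averaged 10 CPM or more 27.8% and 20.7%. The median log2 fold change was -0.56 over the members, 0.19 over all genes and -0.16 over genes of at least 10 CPM. With DESeq2's size factors the medians became -0.41 for members and 0.36 for all genes, with 13.5% of genes lower and 23.5% higher, and 18 members lower and 2 higher. Hnrnpdl, Sf3b2, Sf3b5 and Srsf11 were then no longer called, and Hnrnpr was, as higher.

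**Figure D1:**
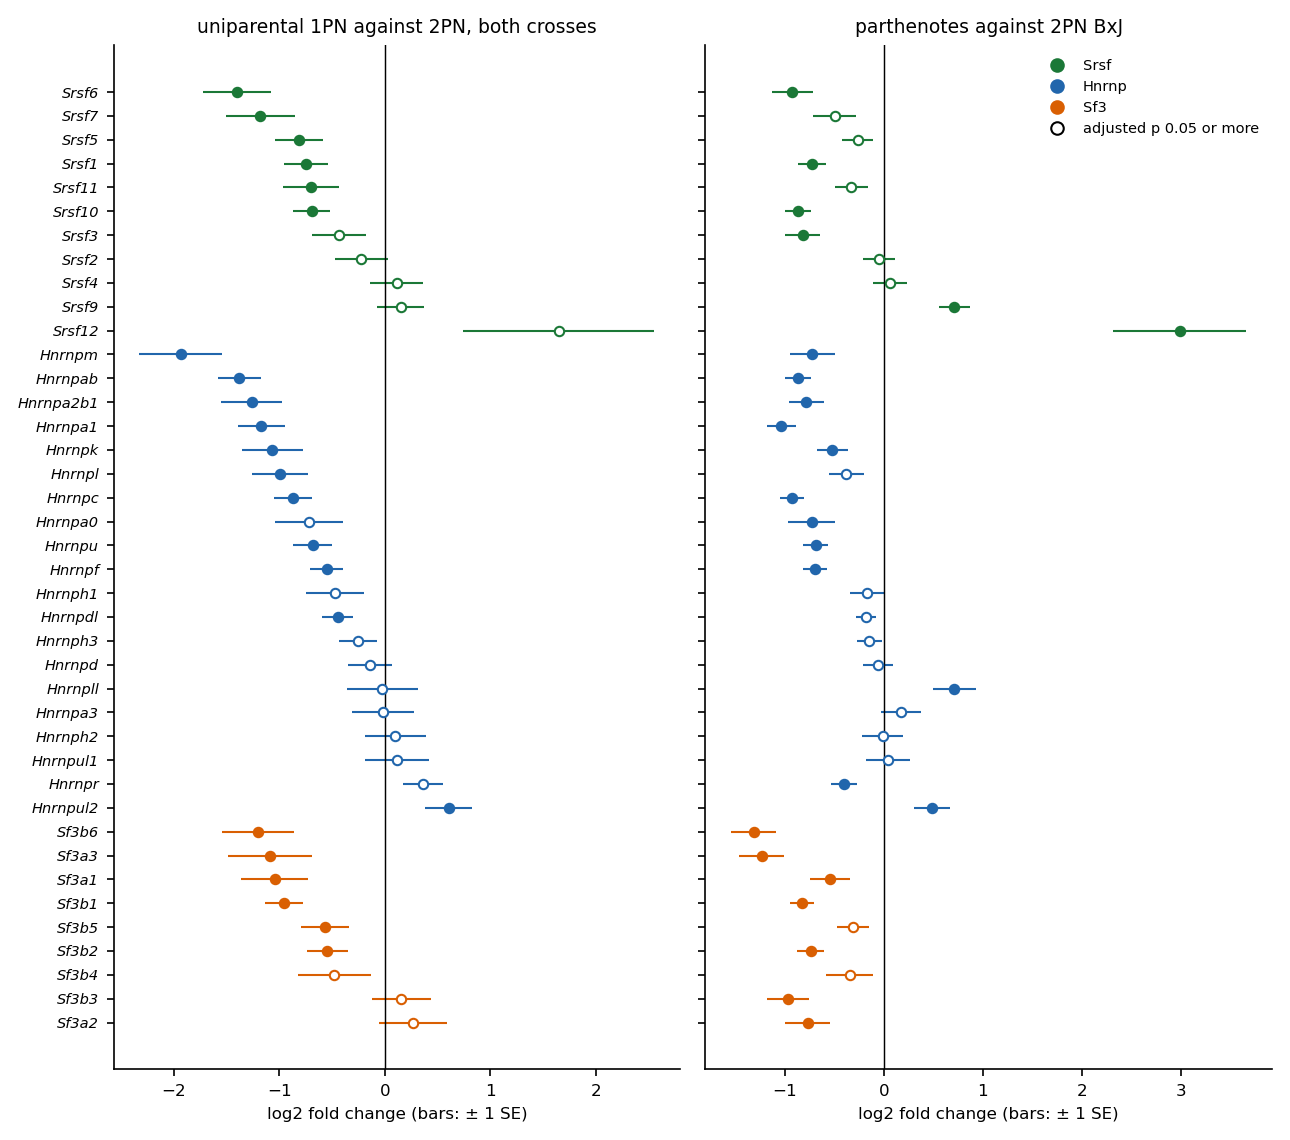
The log2 fold change (horizontal axis) of each of the 40 members in uniparental 1PN against 2PN embryos of both crosses (left) and in parthenotes against 2PN BxJ embryos (right), by family, with bars of 1 SE to either side and filled points past the threshold. On the left the points run from -1.94 for Hnrnpm to 1.65 for Srsf12, with 22 filled points below 0 and 1 above, and on the right 21 lie below 0 and 4 above.

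The summed level of the 40 members was 2510 to 6832 CPM (median 3607) in uniparental JxB embryos, against 2827 to 16290 CPM (median 10887) in 2PN JxB embryos. It was 3762 to 10716 CPM (median 5724) in uniparental BxJ embryos, against 5589 to 14123 CPM (median 9773) in 2PN BxJ embryos. The groups overlapped in both crosses. Uniparental JxB embryos 1 and 2, at 2704 and 2510 CPM, lay below all 2PN embryos of their cross. So did uniparental BxJ embryos 7, 10, 19 and 22, at 4842, 3762, 4713 and 4024 CPM. Uniparental BxJ embryo 14, at 10716 CPM, lay above the 2PN BxJ median. Counted per embryo, 27 to 33 members (median 31.5) were below the 2PN median of the cross in uniparental JxB embryos. Of the genes that averaged 10 CPM or more, 57.2% to 63.4% were. In uniparental BxJ embryos 16 to 34 members (median 30.5) were below it, where 49.9% to 61.3% of these genes were. In the 2PN JxB embryos themselves 8 to 34 members (median 18) were below it, beside 39.1% to 65.3% of these genes. In 2PN BxJ embryos 9 to 31 members (median 18) were, beside 43.7% to 60.8%.

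**Figure D2:**
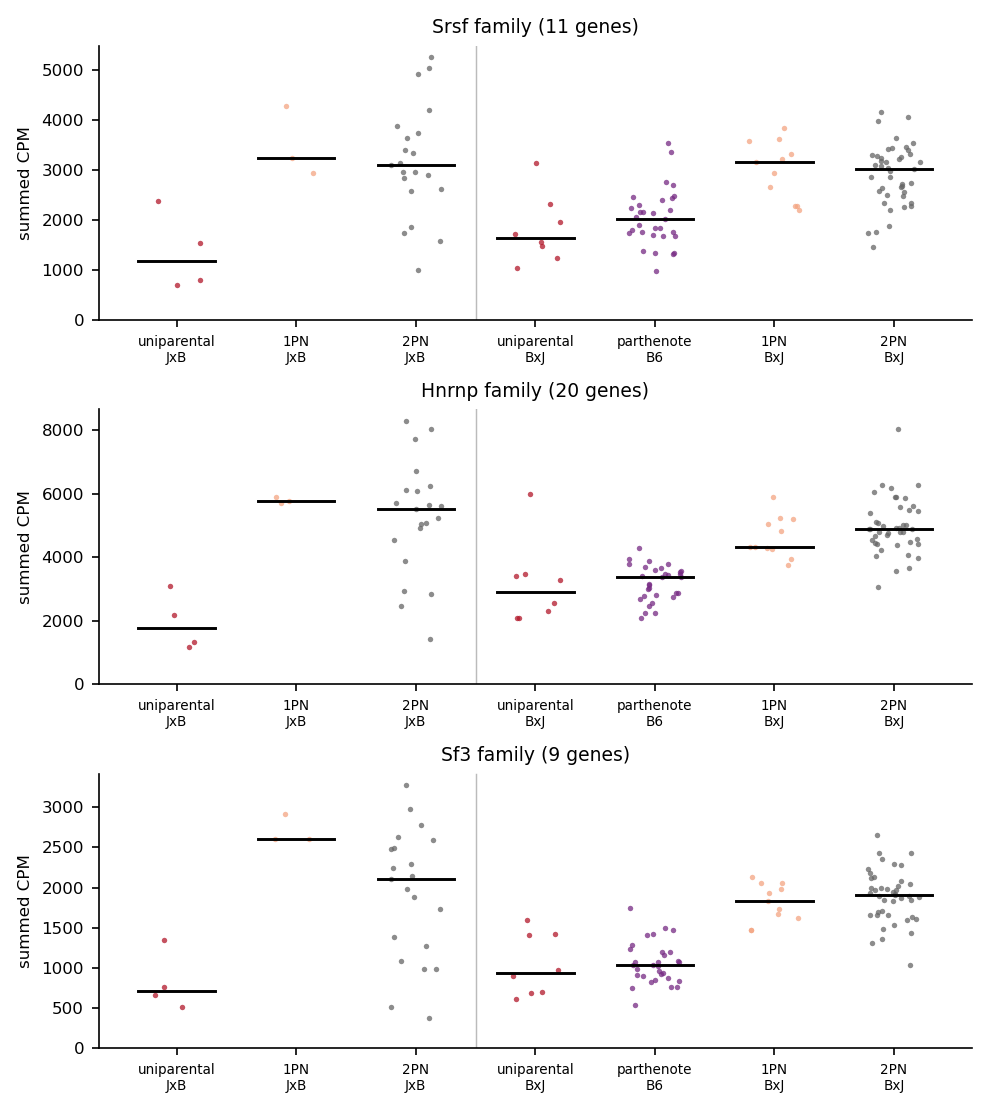
The summed CPM of the Srsf, Hnrnp and Sf3 members in each embryo of the 7 groups, 1 point per embryo, with a line at the median of the group. In each family the medians of the uniparental embryos and parthenotes lie below those of the 1PN and 2PN embryos of their cross, and the points overlap.

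Among the SR proteins, the 3 most lowered were Srsf6, Srsf7 and Srsf5. Srsf6, an SR protein that acts at exonic enhancers (chr2:162931508-162937121), had 7.79, 32.6, 47.6 and 21.9 CPM in the 4 uniparental JxB embryos, against 8.92 to 251 CPM (median 107) in 2PN JxB embryos. Its level was 10.1 to 78.3 CPM (median 30.8) in uniparental BxJ embryos, against 18.7 to 177 CPM (median 74.1) in 2PN BxJ embryos. The groups overlapped, and 11 of 12 uniparental embryos lay below the 2PN median of their cross. Over both crosses the log2 fold change was -1.40 ± 0.32 (SE, adjusted p = 0.000425). Srsf7, an SR protein with a zinc knuckle that also takes part in mRNA export (chr17:80200080-80207369), had 7.79, 39.3, 592 and 405 CPM in the 4 uniparental JxB embryos, against 78.1 to 2085 CPM (median 548) in 2PN JxB embryos. In the other cross it had 142 to 573 CPM (median 247) in uniparental BxJ embryos, against 208 to 1916 CPM (median 529) in 2PN BxJ embryos. Uniparental JxB embryos 1 and 2 were far below embryos 3 and 7, and 10 of 12 uniparental embryos were under the 2PN median. Its log2 fold change was -1.18 ± 0.33 (SE, adjusted p = 0.00309). Srsf5, an SR protein induced by growth signals in other cells (chr12:80945495-80950507), had 126, 137, 231 and 233 CPM in the 4 uniparental JxB embryos, against 42.7 to 1015 CPM (median 679) in 2PN JxB embryos. Values were 69.7 to 711 CPM (median 333) in uniparental BxJ embryos, against 145 to 885 CPM (median 509) in 2PN BxJ embryos. The groups overlapped in both crosses, and 10 of 12 uniparental embryos were under the 2PN median. The fit over both crosses gave a log2 fold change of -0.82 ± 0.23 (SE, adjusted p = 0.00344). Srsf1, the founding SR protein (-0.75), Srsf11 (-0.70) and Srsf10, an SR-like protein that can repress splicing (-0.69), also fell, as log2 fold changes. The other 5 did not pass the test, with log2 fold changes of -0.43 for Srsf3, -0.22 for Srsf2, 0.11 for Srsf4, 0.15 for Srsf9 and 1.65 for the barely detected Srsf12.

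Of the Hnrnp genes Hnrnpm, Hnrnpab and Hnrnpa2b1 fell most. Hnrnpm, which binds GU-rich RNA (chr17:33646233-33685458), had 7.32, 2.42, 3.86 and 0 CPM in the 4 uniparental JxB embryos, against 2.68 to 327 CPM (median 72.1) in 2PN JxB embryos. Within BxJ the level was 8.21 to 145 CPM (median 51.2) in uniparental BxJ embryos, against 31.4 to 382 CPM (median 165) in 2PN BxJ embryos. Hnrnpm was near the bottom of the 2PN range in uniparental JxB embryos, at 0 in embryo 7, and 12 of 12 uniparental embryos were below the 2PN median. edgeR put the log2 fold change at -1.94 ± 0.39 (SE, adjusted p = 6.90e-05). Hnrnpab, a relative of the AU-rich element binder Hnrnpd (chr11:51600100-51606881), had 72.0, 91.2, 41.2 and 74.0 CPM in the 4 uniparental JxB embryos, against 22.9 to 635 CPM (median 343) in 2PN JxB embryos. Its level was 61.9 to 424 CPM (median 168) in uniparental BxJ embryos, against 138 to 679 CPM (median 406) in 2PN BxJ embryos. Embryo 14 of uniparental BxJ was highest of its group at 424 CPM, and 11 of 12 uniparental embryos were below the 2PN median. Over both crosses the log2 fold change was -1.38 ± 0.20 (SE, adjusted p = 1.81e-07). Hnrnpab overlaps the gene Phykpl, and with no strand stated the reads of overlapping genes cannot be told apart. Hnrnpa2b1, an A/B-type protein that binds exonic and intronic silencers (chr6:51460434-51470048), had 17.5, 2.12, 109 and 165 CPM in the 4 uniparental JxB embryos, against 119 to 1624 CPM (median 505) in 2PN JxB embryos. In the other cross it had 114 to 498 CPM (median 218) in uniparental BxJ embryos, against 202 to 738 CPM (median 410.3) in 2PN BxJ embryos. Embryo 2 of uniparental JxB had the lowest value, and 11 of 12 uniparental embryos were below the 2PN median. Its log2 fold change was -1.26 ± 0.29 (SE, adjusted p = 0.00035). Hnrnpa1, the best known repressor of exon inclusion among the hnRNPs (chr15:103239943-103246698), had 39.7, 64.0, 420.0 and 321 CPM in the 4 uniparental JxB embryos, against 74.8 to 1260.4 CPM (median 631) in 2PN JxB embryos. Values were 152 to 551 CPM (median 215) in uniparental BxJ embryos, against 277 to 1236 CPM (median 578) in 2PN BxJ embryos. Its groups overlapped too, and 12 of 12 uniparental embryos were below the 2PN median. The fit over both crosses gave a log2 fold change of -1.17 ± 0.22 (SE, adjusted p = 2.67e-05). Hnrnpa1 has many processed pseudogenes, and 54.4% of its values above 0 were not whole numbers, and how shared reads were counted is not given.

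A further 6 Hnrnp genes fell. They were Hnrnpk, a binder of C-rich RNA (-1.07 as a log2 fold change), Hnrnpl, a binder of CA repeats (-0.99), Hnrnpc, a binder of U tracts (-0.87), Hnrnpu, a nuclear scaffold protein (-0.68), Hnrnpf, a binder of G runs (-0.55), and Hnrnpdl (-0.45). Hnrnpul2, a relative of Hnrnpu linked to the repair of DNA ends (chr19:8819401-8834143), had 83.8, 94.3, 34.7 and 142 CPM in the 4 uniparental JxB embryos, against 14.7 to 211 CPM (median 63.0) in 2PN JxB embryos. Within BxJ the level was 20.3 to 71.5 CPM (median 39.7) in uniparental BxJ embryos, against 6.67 to 67.3 CPM (median 28.3) in 2PN BxJ embryos. Embryo 3 of uniparental JxB was low, and 10 of 12 uniparental embryos lay above the 2PN median. edgeR put the log2 fold change at 0.60 ± 0.22 (SE, adjusted p = 0.0268). Of the 40 members, only Hnrnpul2 rose in this comparison, and it did not pass without uniparental JxB embryo 7 (0.54), without embryos 1 and 2 together (0.55) or without the 5 embryos rich in Btg4 described below (0.53). The 9 members that did not pass were Hnrnpa0 (-0.72), Hnrnph1 (-0.48), Hnrnph3 (-0.25), Hnrnpd (-0.14), Hnrnpll (-0.02), Hnrnpa3 (-0.02), Hnrnph2 (0.10), Hnrnpul1 (0.12) and Hnrnpr (0.36), again as log2 fold changes.

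In the SF3a and SF3b complexes the most lowered subunits were Sf3b6, Sf3a3 and Sf3a1. None of these passed the test within BxJ alone. There 1 of the 9 Sf3 genes, Sf3b1, was called lower, against 6 in JxB. Sf3b6, the subunit that contacts the branch point adenosine (chr12:4817608-4827659), had 0.236, 0.604, 409.8 and 114 CPM in the 4 uniparental JxB embryos, against 15.7 to 1193 CPM (median 707) in 2PN JxB embryos. Its level was 52.7 to 435 CPM (median 212) in uniparental BxJ embryos, against 184 to 703 CPM (median 455) in 2PN BxJ embryos. Embryos 1 and 2 of uniparental JxB were close to 0 while embryos 3 and 7 were not, and 12 of 12 uniparental embryos were below the 2PN median. Over both crosses the log2 fold change was -1.20 ± 0.34 (SE, adjusted p = 0.00419). Sf3a3, an SF3a subunit (chr4:124714861-124732423), had 0, 0, 11.6 and 6.39 CPM in the 4 uniparental JxB embryos, against 5.69 to 228 CPM (median 75) in 2PN JxB embryos. In the other cross it had 20.3 to 181 CPM (median 65.5) in uniparental BxJ embryos, against 13.5 to 216 CPM (median 115) in 2PN BxJ embryos. Embryos 1 and 2 had no count, and 11 of 12 uniparental embryos were below the 2PN median. Its log2 fold change was -1.09 ± 0.40 (SE, adjusted p = 0.0254). The call of Sf3a3 was lost without uniparental JxB embryo 2 (-0.94), 3 (-0.99) or 7 (-0.97), without embryos 1 and 2 together (-0.84), without the 5 embryos rich in Btg4 described below (-0.76), and with total counts in place of TMM (-0.95). Sf3a3 overlaps a pseudogene and a microRNA gene. Sf3a1, the SF3a subunit with a ubiquitin-like domain (chr11:4160354-4182541), had 50.5, 15.4, 3.22 and 2.74 CPM in the 4 uniparental JxB embryos, against 1.53 to 208 CPM (median 79.8) in 2PN JxB embryos. Values were 29.7 to 166 CPM (median 75.8) in uniparental BxJ embryos, against 11.7 to 228 CPM (median 159) in 2PN BxJ embryos. Here embryos 3 and 7 of uniparental JxB were the low ones, and 11 of 12 uniparental embryos were below the 2PN median. The fit over both crosses gave a log2 fold change of -1.05 ± 0.32 (SE, adjusted p = 0.00761). Sf3b1, the largest SF3b subunit and the one that holds the branch site, fell by 0.95 on the log2 scale (SE 0.18, adjusted p = 1.89e-05), with 12 of 12 uniparental embryos below the 2PN median. Sf3b5 (-0.56) and Sf3b2 (-0.55) fell as well, while Sf3b4 (-0.48), Sf3b3 (0.16) and Sf3a2 (0.27) did not pass the test.

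**Figure D3:**
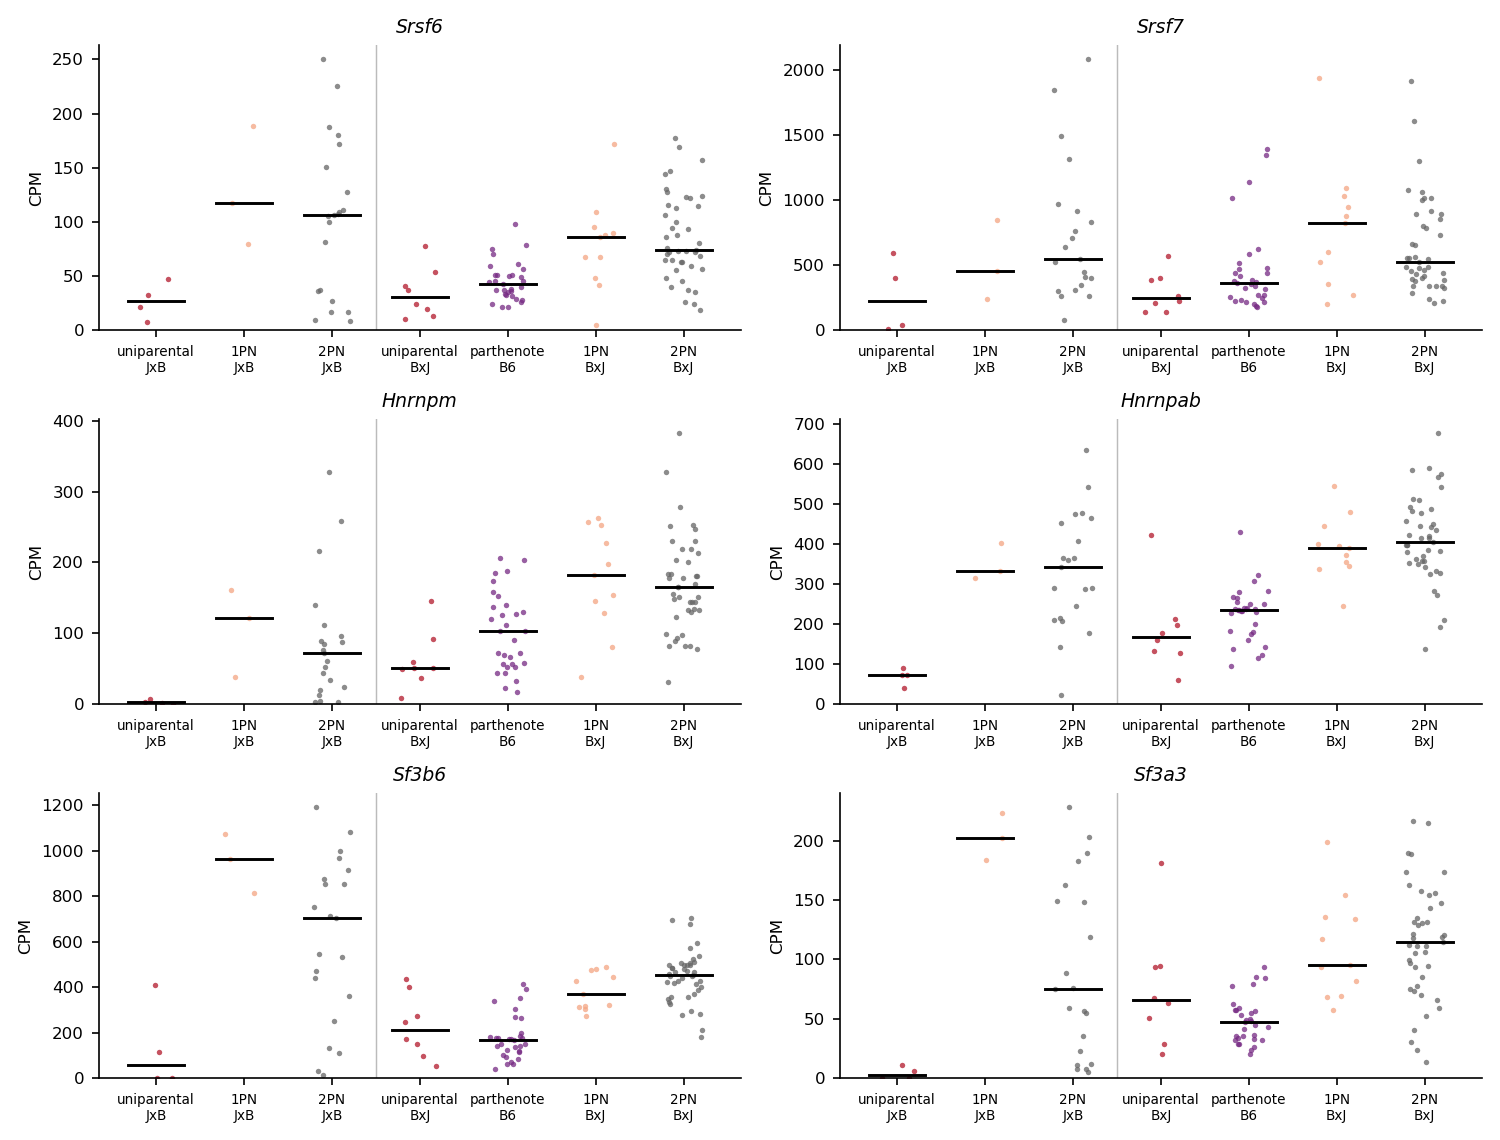
CPM of Srsf6, Srsf7, Hnrnpm, Hnrnpab, Sf3b6 and Sf3a3, 1 panel per gene and 1 point per embryo in the 7 groups, with lines at group medians. Sf3b6 shows uniparental JxB embryos 1 and 2 at 0.236 and 0.604 CPM beside embryos 3 and 7 at 409.8 and 114 CPM.

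Uniparental embryos also held more RNA typical of oocytes when summed over 8 markers, though not for each marker. The 8 oocyte-derived markers, all of them detected in every embryo, summed to 2428 to 14365 CPM in uniparental JxB embryos, against 510 to 4658 CPM in 2PN JxB embryos. They summed to 2066 to 12139 CPM in uniparental BxJ embryos, against 731 to 4573 CPM in 2PN BxJ embryos. Over both crosses 5 of the 8 rose and 0 fell, and 2 had a log2 fold change below 0. Within BxJ 3 rose and 1 fell. Btg4 was a large part of the highest sums, with 7219 of 14365 CPM in uniparental JxB embryo 2. Btg4, which promotes the decay of maternal mRNA, reached 3018 to 7219 CPM in 5 uniparental embryos, JxB 1 and 2 and BxJ 7, 10 and 19, and at most 1685 CPM in 2PN embryos. Without these 5 embryos, a choice made after seeing the data, 7 members fell and none rose, namely Sf3b1, Srsf6, Hnrnpa2b1, Hnrnpc, Hnrnpab, Hnrnpa1 and Hnrnpm. The median log2 fold change was then -0.38 over the members and 0.08 over all genes, of which 5.41% were called lower. Without JxB embryos 1 and 2 alone 18 members fell and none rose, beside 12.8% of all genes lower and 12.7% higher, and Sf3a3, Sf3b2, Sf3b5, Srsf11 and Hnrnpul2 were no longer called. The part of oocyte-derived RNA in the member results was not tested.

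Within each cross most called members were lower again. In uniparental against 2PN BxJ embryos 11 members fell and 1 rose, the barely detected Srsf12, beside 10.2% of 24380 genes lower and 12.1% higher. By family 4 SR protein genes, 6 Hnrnp genes and 1 Sf3 gene fell. Of the members given in full above and called over both crosses, Srsf5, Hnrnpul2, Sf3b6, Sf3a3 and Sf3a1 did not pass within BxJ. With DESeq2's size factors 7 of the 40 members fell and 2 rose, and with total counts 8 fell and 2 rose. Of all 24380 genes 2009 and 1790 were then lower, and 18.9% and 17.9% higher. With limma voom 18 fell and none rose, beside 13.1% of all genes lower. Of 5 tested markers of cumulus and granulosa cells 2 rose, and the 10 listed summed to 2.15 to 74.1 CPM (median 22.8) in uniparental BxJ embryos, against 0 to 42.8 CPM (median 6.05) in 2PN BxJ embryos, with Fshr at 0 in both groups. Their part in the member results was not tested. The largest falls in BxJ were those of Hnrnpm (-1.45), Srsf6 (-1.31) and Sf3b1 (-1.20), as log2 fold changes. In uniparental against 2PN JxB embryos 22 members fell and Hnrnpr rose, beside 20.7% of all genes lower and 11% higher. The 22 were 7 SR protein genes, 9 Hnrnp genes and 6 Sf3 genes. With DESeq2's size factors 4176 of all 24380 genes were lower and 3547 higher. The median log2 fold change in JxB was -1.06 over the members and -0.52 over all genes, while in BxJ it was -0.50 over the members and 0.19 over all genes. Hnrnpm (-4.54), Sf3a3 (-4.50) and Hnrnpk (-3.76) fell most among detected members, again as log2 fold changes. Srsf12 had no count in the uniparental JxB embryos and was at least 5.92-fold lower than in 2PN JxB embryos, taking 3 counts over the group as the floor. That bound rests on 2PN JxB embryo 21, which held 55 of the 79 Srsf12 counts of its group.

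The difference between the crosses was tested as an interaction. The strain left in a parthenogenetic embryo would differ between the crosses too, so strain cannot be told apart here either. The uniparental effect in JxB minus that in BxJ passed the test for 10 members, of which 9 were more negative in JxB and 1, Hnrnpr, was more positive. Over all genes 13% were more negative and 3.64% more positive, and the median difference was -0.66 over the members and -0.60 over all genes. Hnrnpk had 13.2, 48.6, 104 and 7.30 CPM in uniparental JxB embryos, against 51.9 to 1022 CPM (median 585) in 2PN JxB embryos. In BxJ its level was 137 to 1214 CPM (median 353) in uniparental embryos, against 339 to 1296 CPM (median 616) in 2PN embryos. Under the lowest 2PN embryo of their cross lay 3 of the 4 uniparental JxB and 4 of the 8 uniparental BxJ embryos, and the difference between crosses was -3.19 ± 0.51 (SE, adjusted p = 9.21e-07). These counts changed with the few uniparental JxB embryos. Without its embryos 1 and 2, 9 members fell in JxB (Srsf11, Sf3a3, Hnrnpa2b1, Hnrnpl, Sf3a2, Sf3a1, Hnrnpab, Hnrnpk and Hnrnpm), beside 5.86% of all genes. The interaction then passed in the negative direction for 5 (Sf3a3, Sf3a2, Sf3a1, Hnrnpk and Hnrnpm), beside 2.91% of all genes. Without embryo 2 alone it passed in that direction for 6, beside 7.89% of all genes. Without all 5 embryos rich in Btg4, it did so for 6, beside 3.19% of all genes, and 3 members fell in BxJ (Sf3b1, Srsf6 and Hnrnpab), beside 2.69%.

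**Figure D4:**
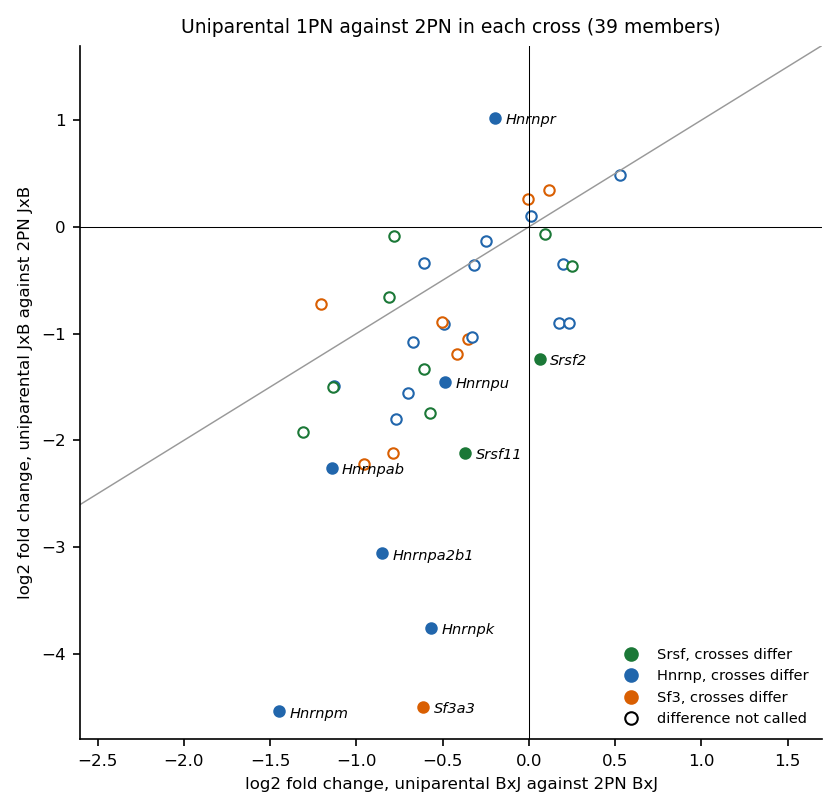
The log2 fold change in uniparental 1PN against 2PN embryos within JxB (vertical axis) and within BxJ (horizontal axis), 1 point per member without Srsf12, filled where the crosses differed, with a line of equal values. Hnrnpm, Sf3a3 and Hnrnpk lie far on the negative side in JxB, at -4.54, -4.50 and -3.76.

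1PN embryos that were not called parthenogenetic gave another picture. Against 2PN embryos no member passed edgeR's test in either direction, and 0 members had an unadjusted p below 0.05, beside 0.0351% of all genes lower and 0.228% higher. DESeq2 and limma voom called 0 members. The median log2 fold change was 0.02 over the members and -0.02 over all genes. The 95% interval lay within 1 on the log2 scale to either side of 0 for 37 of the 40 members. The widest was that of Srsf12, from -2.94 to 1.38. Summed over the members, the level was 11267 to 12982 CPM (median 11763) in 1PN JxB embryos, against the 2PN JxB median of 10887 CPM. It was 7824 to 11874 CPM (median 9905) in 1PN BxJ embryos, against the 2PN BxJ median of 9773 CPM. Sf3b6 was at 815 to 1076 CPM in the 3 1PN JxB embryos, inside the 2PN JxB range. Srsf6 ranged over 4.71 to 172 CPM (median 86.5) in 1PN BxJ embryos and reached below the 2PN BxJ range in the lowest of them.

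When uniparental embryos were set against the other 1PN embryos, 19 members fell and 0 rose, beside 12.7% of all genes lower and 12.7% higher. The counts were 5 for SR protein genes, 9 for Hnrnp genes and 5 for Sf3 genes. Hnrnpm (-2.04), Sf3a3 (-1.41), Srsf6 (-1.39), Sf3a1 (-1.35) and Hnrnpab (-1.33) had the most negative log2 fold changes. The median was -0.63 over the members and 0.19 over all genes. Without the 5 uniparental embryos rich in Btg4, 4 members fell, beside 4.06% of all genes. The uniparental embryos are the same as in the comparison with 2PN embryos, so the results are not independent.

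Parthenotes of C57BL/6 were compared with 2PN BxJ embryos, which differ from them in strain as well, so strain and parthenogenesis cannot be told apart. Again most called members were lower. In all 21 fell and 4 rose, with 4 lower and 2 higher SR protein genes, 10 lower and 2 higher Hnrnp genes, and 7 lower Sf3 genes. Among all 24380 genes 19.6% were called lower and 24.8% higher, and among those that averaged 10 CPM or more 32.1% and 21.9%. With DESeq2's size factors 15.7% of all genes were lower and 32.1% higher, and 17 members fell and 4 rose. The median log2 fold change was -0.51 over the members and 0.19 over all genes. Summed over the members, the level was 3615 to 9341 CPM (median 6431) in parthenotes, against 5589 to 14123 CPM (median 9773) in 2PN BxJ embryos. Per embryo, 22 to 34 members of a parthenote were below the 2PN BxJ median, against 9 to 31 in 2PN BxJ embryos. Of the genes that averaged 10 CPM or more, 51.0% to 61.0% were below it in parthenotes.

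Sf3b6 had 42.3 to 417 CPM (median 170.5) in parthenotes, against 184 to 703 CPM (median 455) in 2PN BxJ embryos. All 31 parthenotes were below the 2PN median and 22 were below the lowest 2PN embryo, and the log2 fold change was -1.31 ± 0.23 (SE, adjusted p = 8.27e-07). Hnrnpa1 had 119 to 584 CPM (median 296) in parthenotes, against 277 to 1236 CPM (median 578) in 2PN BxJ embryos. Here 30 of 31 parthenotes were below the 2PN median, and the log2 fold change was -1.03 ± 0.15 (SE, adjusted p = 6.42e-09). Srsf6 had 21.7 to 98.6 CPM (median 42.8) in parthenotes, against 18.7 to 177 CPM (median 74.1) in 2PN BxJ embryos. The groups overlapped more, with 28 of 31 parthenotes below the median, and the log2 fold change was -0.92 ± 0.21 (SE, adjusted p = 9.61e-05). Other falls among Sf3 subunits were those of Sf3a3 (-1.23), Sf3b3 (-0.97), Sf3b1 (-0.83), Sf3a2 (-0.77), Sf3b2 (-0.74) and Sf3a1 (-0.54). Hnrnp genes that fell besides Hnrnpa1 were Hnrnpc (-0.93), Hnrnpab (-0.86), Hnrnpa2b1 (-0.79), Hnrnpa0 (-0.73), Hnrnpm (-0.72), Hnrnpf (-0.70), Hnrnpu (-0.69), Hnrnpk (-0.52) and Hnrnpr (-0.40). Among SR proteins Srsf10 (-0.86), Srsf3, the smallest of them (-0.82), and Srsf1 (-0.73) fell. The members that rose were Srsf9 (0.71), Hnrnpll, a regulator of Ptprc splicing in lymphocytes (0.71), Hnrnpul2 (0.49) and the barely detected Srsf12 (2.99). The other 15 did not pass, with log2 fold changes of -0.50 (Srsf7) to 0.18 (Hnrnpa3). With DESeq2's size factors Hnrnpa0 (-0.51), Sf3a1 (-0.36), Hnrnpk and Hnrnpr did not pass either, and with total counts neither these 4 nor Hnrnpm did.

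Markers of cumulus and granulosa cells, which surround the oocyte, moved with this comparison. Of 5 tested genes out of the 10 listed, 4 rose in parthenotes. The 10 summed to 6.00 to 85.6 CPM in parthenotes, against 0 to 42.8 CPM in 2PN BxJ embryos, while Ptx3 and Fshr were at 0 in all 31 parthenotes. Of the oocyte-derived markers 2 rose and 1 fell, with sums of 1289 to 3995 CPM in parthenotes, against 731 to 4573 CPM in 2PN BxJ embryos. Sperm and testis markers gave 1 higher and 1 lower gene of 4 tested, with Tnp1 counts in 1 of 31 parthenotes, and summed to 0 to 16.1 CPM in parthenotes, against 0 to 9.52 CPM in 2PN BxJ embryos. Of the 2-cell stage markers 4 rose and 1 fell of 8, with sums of 662 to 4689 CPM (median 1825) in parthenotes, against 384 to 6548 CPM (median 1295) in 2PN BxJ embryos. Of the 2 measured blood markers 1 rose, with sums of 2.71 to 67.4 CPM (median 27.2) in parthenotes, against 0.523 to 59.7 CPM (median 9.84) in 2PN BxJ embryos. The part of these markers in the member results was not tested.

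Uniparental BxJ embryos and parthenotes, both called parthenogenetic, were compared directly. No member passed edgeR's test, and 3 had an unadjusted p below 0.05, namely Sf3b3 (0.96), Sf3a2 (0.89) and Hnrnpdl (-0.43), as log2 fold changes. DESeq2 and limma voom called 0 members, and edgeR's newer quasi-likelihood form called 1, Sf3b3. Over all genes 0.541% were lower and 1.33% higher. The 95% interval lay within 1 on the log2 scale to either side of 0 for 31 of the 40 members, and reached past it for the other 9. Their comparisons with 2PN embryos share the 2PN BxJ libraries. The log2 fold changes against 2PN BxJ embryos for Sf3b6 were -0.96 in uniparental BxJ embryos, without passing the test, and -1.31 in parthenotes. For Hnrnpa1 they were -1.13 in uniparental BxJ embryos and -1.03 in parthenotes, and for Sf3b3 -0.00 in uniparental BxJ embryos and -0.97 in parthenotes.

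The reciprocal 2PN crosses differed in both directions. In 2PN JxB against 2PN BxJ embryos 8 members were higher and 7 lower, beside 19.1% of all genes higher and 21.1% lower, and the median log2 fold change was 0.01 over the members and -0.06 over all genes. Srsf2, an SR protein that marks nuclear speckles, had 88.5 to 881 CPM (median 349.8) in 2PN JxB embryos, against 82.3 to 334 CPM (median 161) in 2PN BxJ embryos. In 20 of 21 JxB embryos it was above the BxJ median, in 11 above the highest BxJ embryo, and the log2 fold change was 1.22 ± 0.18 (SE, adjusted p = 6.11e-09). Srsf2 overlaps Mfsd11, and 81.5% of its values above 0 were not whole numbers. Hnrnpa0, an A/B-type protein that binds AU-rich elements, was low in both groups, at 2.71 to 49.8 CPM (median 14.9) in 2PN JxB embryos, against 1.04 to 16.1 CPM (median 7.28) in 2PN BxJ embryos. The log2 fold change was 1.20 ± 0.25 (SE, adjusted p = 4.64e-05), with 16 of 21 JxB embryos above the BxJ median. Sf3a1 had 1.53 to 208 CPM (median 79.8) in 2PN JxB embryos, against 11.7 to 228 CPM (median 159) in 2PN BxJ embryos. It was below the BxJ median in 19 of 21 JxB embryos, and the log2 fold change was -0.89 ± 0.24 (SE, adjusted p = 0.00134).

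Hnrnpul2 (1.05), Hnrnpll (0.85), Hnrnpa2b1 (0.52), Srsf1 (0.51) and Hnrnpc (0.40) were higher in 2PN JxB embryos too, and so was Srsf12, whose call rests on embryo 21 with 83.9 CPM. Lower ones were Hnrnpa3 (-0.98), Hnrnpm (-0.96), Srsf3 (-0.78), Hnrnpr (-0.67), Srsf10 (-0.48) and Hnrnpf (-0.42), all as log2 fold changes. The other 25 did not pass, with values of -0.38 (Sf3b3) to 0.52 (Hnrnpul1). Without 2PN JxB embryos 8 and 21, left out after seeing that their summed member level was low, 8 were higher and 7 lower. Of all 24096 genes tested 3766 were higher and 5385 lower. Srsf12 was then no longer called (1.46, adjusted p = 0.109 in edgeR's test) and Sf3b6 was (0.59, adjusted p = 0.0312). Of the 8 markers of the 2-cell stage 5 were higher and none lower, with sums of 1018 to 7538 CPM (median 2622) in 2PN JxB embryos, against 384 to 6548 CPM (median 1295) in 2PN BxJ embryos. Of the 8 oocyte-derived markers 2 were higher and 2 lower, with sums of 510 to 4658 CPM (median 985) in 2PN JxB embryos, against 731 to 4573 CPM (median 1558) in 2PN BxJ embryos. Library totals overlapped, at 533116 to 3925201 counts (median 2521857) in 2PN JxB embryos, against 1691273 to 4887190 counts (median 3867552) in 2PN BxJ embryos. The part of stage and depth in these differences was not tested.

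**Figure D5:**
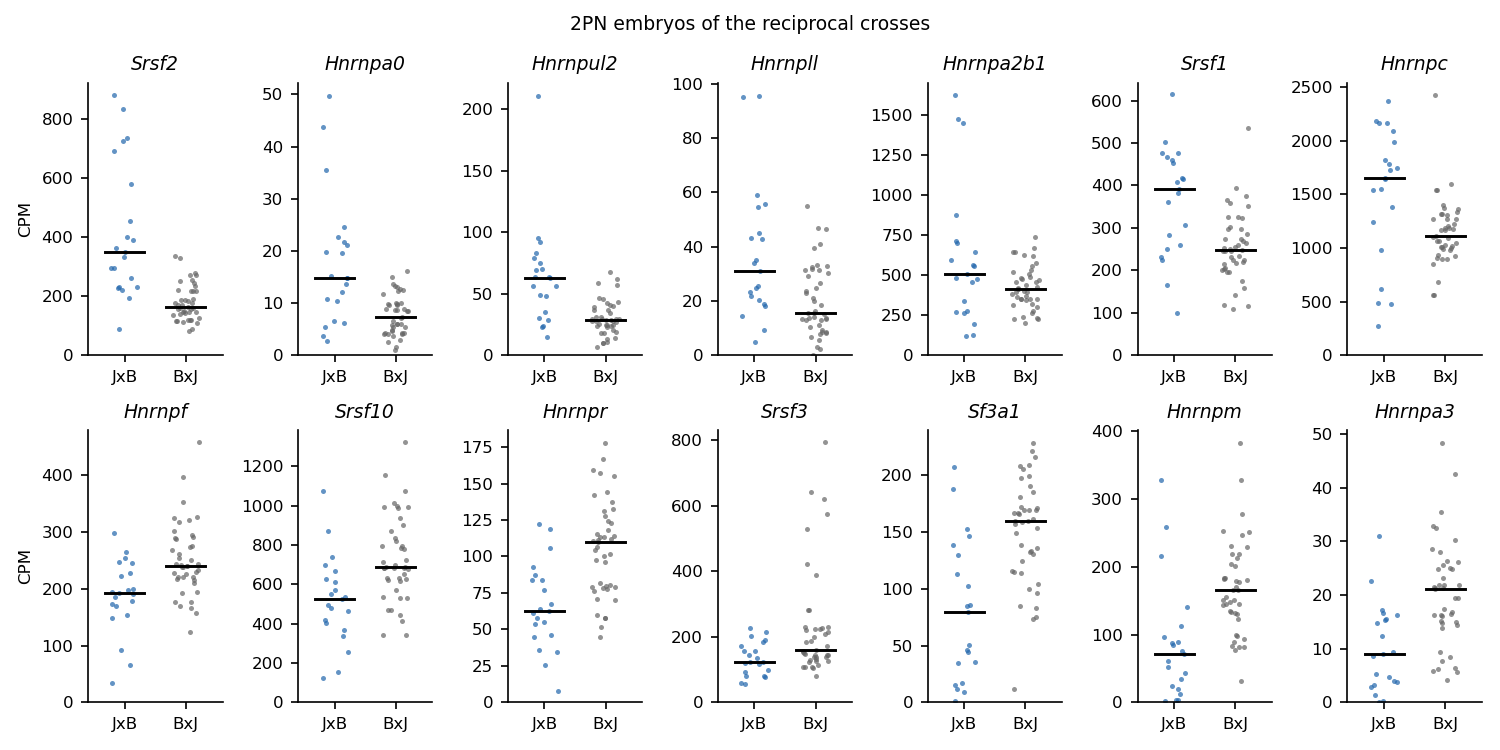
CPM of the called members other than Srsf12 in 2PN JxB and 2PN BxJ embryos, 1 panel per gene and 1 point per embryo, with lines at group medians, in the order of the log2 fold change. Srsf2 stands first, with medians of 349.8 CPM in 2PN JxB embryos and 161 CPM in 2PN BxJ embryos, and the points of both groups overlap in each panel.

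Other genes of splicing were taken from 11 lists with 121 genes outside the 3 families. In uniparental against 2PN embryos 53 of the 121 fell and 14 rose, with a median log2 fold change of -0.58, beside 15.8% of all genes lower and 18.3% higher. In parthenotes against 2PN BxJ embryos 71 fell and 7 rose, with a median of -0.51, beside 19.6% of all genes lower and 24.8% higher. The U1 particle, which recognises the start of an intron, had 3 of 6 genes lower, among them Luc7l (-1.21) and Snrpc (-0.997), in uniparental against 2PN embryos, which the following values compare as well. Of the 10 genes of the U2 particle and the 3' splice site 6 fell and 1 rose, with Snrpa1 (-1.70) and Puf60 (-1.07) among those that fell. The Sm core, the ring of proteins around spliceosomal RNAs, had 4 lower and 1 higher of 8. Snrpn, a paternally expressed imprinted gene, fell in uniparental embryos (-1.56) and in parthenotes (-2.59), while Snrpg rose in uniparental embryos (0.67) and fell in parthenotes (-0.41).

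In the tri-snRNP 7 of 21 genes fell and 2 rose, with Snu13 (-1.31) and the helicase gene Snrnp200 (-1.64) lower. Among all genes that averaged 10 CPM or more 27.8% were lower and 20.7% higher. The shares lower in the tri-snRNP, the minor spliceosome and the SR-related proteins were near that 27.8%. The Prp19 complex, which works in the active spliceosome, had 6 of 12 lower and 1 higher, with Crnkl1 (-1.55) and Ctnnbl1 (-1.03) among the lower ones. Of the 6 late helicases 5 fell, among them Dhx8 (-1.18) and Ddx5 (-0.80). The exon junction complex, deposited on spliced mRNA, had 4 of 5 lower, with Rbm8a (-1.39) and Magoh (-1.17). Of 9 genes of the minor spliceosome 3 fell and 1 rose, with Snrnp35 (-1.38) and Scnm1 (-1.18) lower. SR-related proteins had 4 of 12 lower and 1 higher, among them the speckle protein gene Son (-0.89) and Tra2b (-1.08), both lower. In the list of SR protein kinases and import 3 of 8 rose and 2 fell, with the kinase gene Srpk2 (0.81) and Tnpo1 (1.07), a transport receptor for Hnrnpa1, higher. Of 24 other splicing regulators 9 fell and 4 rose, with Tial1 (-1.49) and Rbm25 (-1.31) lower. Each value is a log2 fold change from edgeR past the threshold in that comparison.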

How the data were processed

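RNA-seq of 125 single 2-cell mouse embryos was made with SMART-Seq v4 and Nextera XT kits, per the labels' protocols. The values the authors deposited are estimated counts per gene. Per the submitters' processing notes, HISAT2 2.0.5, featureCounts 2.0.0 and the build GRCm38 were used. The sources used here do not give which annotation was counted, whether strand was used or how reads in several genes were treated. Of the values above 0, 28.4% were not whole numbers. Of all values of the 40 members, zeros included, 39.2% were not. The values were rounded to whole numbers first.

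Embryos were grouped by the labels' strain, embryo type and in silico embryo type. Left out were 1 library labelled dead and 3 labelled of low quality. The 121 others held 533116 to 4887190 counts, and the number of embryos limits the precision more in the groups of 3 and 4 than in the larger ones. The main test was the quasi-likelihood test of edgeR 4.0.16 in its default form (R 4.3.3), after TMM scaling and a filterByExpr filter by group, with p-values adjusted by the Benjamini-Hochberg method at 0.05. One fit had embryo type and cross as terms (22785 genes), and gave uniparental 1PN, 1PN and 2PN embryos over both crosses. The other had the means of the 7 groups (24380 genes), and gave the rest. The uniparental, 1PN and parthenote comparisons share their 2PN embryos. The script was tested on simulated data. Alternatives were DESeq2's size factors, total counts, no filter, DESeq2 1.42.0, voom of limma 3.58.1, the embryo number as a block and embryos left out. After seeing the data, edgeR's newer form was added, and so were fits without uniparental JxB embryos 1 and 2, without 5 uniparental embryos rich in Btg4, and without 2PN JxB embryos 8 and 21.

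The members and the gene lists were chosen with earlier results of these data known. Values are given in full for up to 3 members of a family with the most negative and up to 2 with the most positive log2 fold change among those called in uniparental against 2PN embryos with a mean of 10 CPM. To these come the largest change of each family in parthenotes and between the 2PN crosses, and Hnrnpk, picked after its values were seen. Each further list gave the 2 genes with the smallest p. Coordinates and promoters are from RefSeq (GRCm38.p6), and all 40 members were matched by identifier. Of these, 14 overlap another RefSeq gene. Tables were made with Python 3.11.15, numpy 2.4.6, pandas 2.3.3 and matplotlib 3.10.9.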

Additional observations from a re-analysis of the deposited data

Results flagged for a closer look

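Embryo 14 of the uniparental BxJ group lay far above the other 7 for Hnrnpab, at 424 CPM against 213 CPM in the next embryo. The same embryo lay far above the others for Sf3a3, at 181 CPM against 94.4 CPM. These were 2 of 26 groups of values looked at. The rule used marks about 1 in 20 groups of independent, normally distributed values. The groups looked at share the same embryos, so that rate need not hold for them.

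For 10 members the uniparental effect differed between the crosses in edgeR's interaction test. The effect in JxB minus that in BxJ, on the log2 scale, was -0.97 for Hnrnpu, -1.75 for Srsf11, -3.89 for Sf3a3, -2.21 for Hnrnpa2b1, -1.11 for Hnrnpab, -1.30 for Srsf2, -3.19 for Hnrnpk, -3.09 for Hnrnpm and 1.21 for Hnrnpr. For Srsf12, without counts in uniparental JxB embryos, the fitted value was -9.33 and is no bound. Without uniparental JxB embryos 1 and 2 it was -2.79 for Hnrnpk (adjusted p = 0.00231 in edgeR's test), -3.86 for Hnrnpm (adjusted p = 0.021) and -2.67 for Sf3a3 (adjusted p = 0.0484), which still passed. The other 7 did not pass then, with -0.17 for Hnrnpu, -1.70 for Srsf11, -1.26 for Hnrnpa2b1, -1.36 for Hnrnpab, -0.36 for Srsf2, 0.79 for Hnrnpr and -9.50 for Srsf12.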

How the results depend on the processing

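Counts of called members kept within 1.5 times of the main count with another normalization, without the filter, and with DESeq2 or limma voom in all 9 comparisons, the widest being 18 against 12 in BxJ with limma voom, all of them lower. Embryo choice moved more. Without the 5 uniparental embryos rich in Btg4, 7 members passed in uniparental against 2PN embryos, against 23, 4 against other 1PN embryos, against 19, 3 in BxJ, against 12, and 6 in the difference between crosses, against 10. Without uniparental JxB embryos 1 and 2, 9 passed in JxB, against 23, and 5 in the difference. Leaving out 1 embryo of the JxB 1PN groups at a time gave 19 to 23 called members over both crosses, 15 to 19 against other 1PN embryos, 11 to 14 in BxJ, 16 to 22 in JxB and 6 to 14 in the difference. With 1 embryo left out in this way, 3577 to 4771 of 22649 to 24674 genes were higher and 3196 to 3812 lower over both crosses. Against other 1PN embryos 2502 to 3150 were higher and 2537 to 2896 lower. Of 24255 to 26277 genes 3000 to 3490 were higher and 2403 to 2611 lower in BxJ. In JxB 1639 to 2895 were higher and 3402 to 5264 lower, and in the difference 524 to 976 and 1711 to 3879. In uniparental BxJ embryos against parthenotes edgeR's newer form called 1 member. In these cases the cause was not tested.

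With the embryo number as a replicate block, 10 members passed in uniparental against other 1PN embryos, 5 in BxJ, 5 in the difference between crosses, 16 in uniparental against 2PN embryos, 20 in JxB, 23 in parthenotes, 13 between the 2PN crosses and 0 in the remaining comparisons. Of the fold changes given in full, those of Sf3a3 (-1.43) and Hnrnpul2 (0.60) in uniparental embryos, Hnrnpul2 in parthenotes (0.36) and Hnrnpa2b1 between the 2PN crosses (0.33) did not pass with the block. With the block, 2396 of all 22205 genes were higher and 2821 lower in uniparental against 2PN embryos. Against other 1PN embryos 1255 were higher and 1755 lower. Of 24205 genes 864 were higher and 1189 lower in BxJ, 2106 and 3942 in JxB, and 367 and 1645 in the difference. In parthenotes 4557 were higher and 4301 lower, and between the 2PN crosses 2151 and 4868. Embryos whose number stands alone drop out of the block fit. Of 57 pairs of embryos with the same number 13 had deviations that correlated above 0.1 over 9379 genes, and 3 correlated best with their own number, so the numbers were taken as names only.

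Of the fold changes of the members given in full, 362 kept direction and call under an alternative, 25 lost the call, 10 gained it and 6 changed sign, and none of these 6 was called in the main test. Srsf2 became 0.0098 in uniparental embryos without JxB embryos 1 and 2. In parthenotes it became 0.16 with DESeq2's size factors and with DESeq2, and 0.19 with total counts. Between the 2PN crosses Srsf6 became -0.015 with the block and Hnrnpa1 0.10 without embryos 8 and 21. Another normalization also moved the median of all genes, in parthenotes to 0.39 with DESeq2's size factors and 0.43 with total counts, where the members' medians were -0.32 and -0.28. Depth limits low members most, such as Srsf12 and Hnrnpa0, and a group of 3 or 4 embryos limits the JxB comparisons.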

Other observations

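The 4 libraries outside all comparisons also held member counts, given here without TMM factors. Summed over the members, the 1PN BxJ embryo labelled dead had 1601 CPM, and the 1PN BxJ embryos labelled of low quality had 3729 and 7211 CPM, against 5872 to 11643 CPM in 2PN BxJ embryos. The 2PN JxB library labelled of low quality held 4680 counts in all, with counts for 18 of the 40 members and a sum of 8120 CPM, against 3474 to 13780 CPM in 2PN JxB embryos.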
